A study of Mus musculus with 112 samples.

Results

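The promoters of 40 genes of the germline and of meiosis were examined for DNA methylation (DNAme) among 21911 protein-coding genes of the autosomes, X and Y. The genes were chosen by name for their known roles, with earlier results of these data known. A promoter was every measured CpG cytosine within 1000 bp of the start of the gene record in mm10 (GRCm38). The list held 7 genes of the synaptonemal complex and cohesin, 7 of meiotic recombination and its checkpoint, 14 of the piRNA pathway and its Tudor proteins, 7 of RNA binding and meiotic entry, and 5 of spermatids, intercellular bridges and the sperm surface. A promoter value needed at least 3 cytosines with a value in at least 4 libraries of every group fitted together. That left 29 of the 40 genes in sperm of exposed and control males (F0), 14 in sperm of their sons (F1), 25 in brain of their sons and 13 where F1 sperm and brain were set side by side.

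The libraries were made for reduced representation bisulfite sequencing (RRBS), where restriction enzymes select CpG-rich DNA and bisulfite converts unmethylated cytosines, and number 112 in 13 groups. F0 sperm, taken from the cauda of the epididymis with the vas deferens, came from C57BL/6J wild type (WT) males that were unexposed (control WT, n = 10) or had inhaled cigarette smoke (CS), here called smoked WT (n = 9), from CS-exposed WT males sampled at 3 successive times after exposure ended (recovery 1, n = 9, recovery 2, n = 10, and recovery 3, n = 10, spanning 28 to 171 days), and from Nrf2-/- males, labelled NRF-/-, that were unexposed (n = 10) or CS-exposed (n = 9). Nrf2-/- mice lack the transcription factor that drives antioxidant defence. F1 sperm came from adult sons of control WT (n = 6) and smoked WT sires (n = 7), and F1 brain, dissected as prefrontal cortex, came from 8 sons of each of 4 kinds of sire, which were WT or Nrf2-/- and CS-exposed or not. Every son had an unexposed CAST/EiJ mother, so that all F1 libraries are of strain hybrids read against a C57BL/6J reference, and those with an Nrf2-/- father inherit 1 targeted allele. A sample of the control WT F1 brain group carries an NRF-/- strain label. It was grouped by its title, and which column of values holds it is unknown. Columns carry facility numbers that match no sample label, so libraries are named here by group and column order.

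The tables hold a methylation percent per cytosine and library with no read counts, so the depth behind each percent is unknown. Positions with a value numbered 800605 to 1855573 per library in F0 sperm, 510221 to 1429075 in F1 sperm and 1332992 to 1711397 in F1 brain. Maternally methylated imprinted promoters, which are free of DNAme in sperm, had library medians of at most 1.78% in every sperm library and of 4.76% to 35.8% in brain. The check rested on 7 or 8 such promoters in F0 sperm but on 1 to 7 in F1 sperm, and a single promoter reached 16.2% in F0 and 16.4% in F1 sperm, both times Peg10. The lowest brain median was in smoked WT F1 brain column 8, in which 15 of the 25 germline promoters had a value. At Nfe2l2, the targeted gene, 6 cytosines were measured in every one of the 48 WT F0 libraries, and 4 of these in 0 of the 19 from Nrf2-/- males.

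Germ cells erase most DNAme early in their development, and the genes they then express include a set with CpG-rich promoters whose products act in meiosis and in the silencing of transposons by piRNAs. In somatic cells a subset of these promoters acquires DNAme around implantation, and such genes are classic examples of repression by promoter DNAme in tissues such as brain. Repressor complexes that hold E2F6 or MAX and MGA bind many of them, through E2F-like sites and the E-box CACGTG.

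Sequence is shown for the stretches where the contrast between tissues can be read CpG by CpG. These are the 250 bases before the start of the 3 genes with the largest brain minus sperm difference, and of the gene with the smallest, among those with at least 3 measured cytosines there, and a stretch of a Dazl intron. The Dazl stretch was chosen after its values were seen. The bases are from the mm10 reference in RefSeq, 5′ to 3′ on the strand of the gene, and capitals mark the CpGs whose DNAme was measured.
Hormad1, chr3:95559427-95559676, plus strand, -250 to -1: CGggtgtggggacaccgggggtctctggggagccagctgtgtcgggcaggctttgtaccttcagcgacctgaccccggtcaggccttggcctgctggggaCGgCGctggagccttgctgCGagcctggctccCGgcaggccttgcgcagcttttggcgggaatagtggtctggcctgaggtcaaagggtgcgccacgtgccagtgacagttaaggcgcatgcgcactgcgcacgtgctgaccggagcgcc
Adad1, chr3:37063277-37063526, plus strand, -250 to -1: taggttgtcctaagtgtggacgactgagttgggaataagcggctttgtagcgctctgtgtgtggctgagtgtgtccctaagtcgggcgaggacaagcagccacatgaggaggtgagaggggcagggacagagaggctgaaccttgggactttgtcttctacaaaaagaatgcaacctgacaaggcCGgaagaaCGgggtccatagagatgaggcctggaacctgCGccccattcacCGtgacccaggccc
Hormad2, chr11:4441106-4441355, minus strand, -250 to -1: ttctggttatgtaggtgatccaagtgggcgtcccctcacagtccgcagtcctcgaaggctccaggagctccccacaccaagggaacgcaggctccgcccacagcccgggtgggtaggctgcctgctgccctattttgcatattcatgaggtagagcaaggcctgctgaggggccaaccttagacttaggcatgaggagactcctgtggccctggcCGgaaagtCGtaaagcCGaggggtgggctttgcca
Smc1b, chr15:85131965-85132214, minus strand, -250 to -1: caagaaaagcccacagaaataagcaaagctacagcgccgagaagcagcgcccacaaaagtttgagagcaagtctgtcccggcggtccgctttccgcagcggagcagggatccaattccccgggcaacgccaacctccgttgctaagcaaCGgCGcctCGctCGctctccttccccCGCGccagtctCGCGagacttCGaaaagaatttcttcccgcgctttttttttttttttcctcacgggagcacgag
Dazl intron, chr17:50293116-50293216, minus strand, 420 to 520 bases after the start: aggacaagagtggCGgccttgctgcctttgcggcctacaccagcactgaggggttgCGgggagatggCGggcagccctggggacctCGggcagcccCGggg

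At the 5 capital CpGs of Hormad1, brain DNAme in sons of control WT sires averaged 63%, 97.1%, 82.7%, 95.8% and 90.9% in the order of the sequence, while control WT F0 sperm averaged 0.00% to 6.66%. The 4 capital CpGs of Adad1 held 5 measured cytosines, which averaged 84.6% to 100% in brain and 0.00% to 10.1% in F1 sperm. Those of Hormad2 averaged 39.7%, 51.1% and 59.5% in brain and at most 0.582% in F0 sperm. Smc1b, which encodes a cohesin subunit of meiosis, was free of DNAme in both tissues over this stretch. Its 9 capital CpGs averaged 0.00% to 2.59% in brain and 0.00% to 1.67% in F0 sperm. In the Dazl intron the first 3 capital CpGs averaged 89.2%, 90.7% and 64.7% in brain, and the last 2, at 507 and 517 bp after the start, 6.27% and 4.42%, with 0.00% in F0 sperm at all 5.

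Levels in F0 sperm were low at nearly every germline promoter. Of the 29 promoters measured in control WT F0 sperm, 27 averaged under 10% (93.1%), and the median promoter had 1.17%. Over all 13249 promoters measured, 94.6% averaged under 10% and the median was 0.82%. Their levels ran from 0.311% for Msh4, which acts in crossover formation, to 8.92% for Piwil2, a PIWI protein that loads piRNAs. The exceptions were Nanos3, an RNA-binding regulator of primordial germ cells, at 84.4% ± 7.75 (SD, n = 10, 3 cytosines), and Adad2, an RNA-binding protein of spermatocytes, at 48.3% ± 4.23 (n = 10). Adad2 held both states, with 3.38% on average at 3 cytosines between 99 and 240 bp after its start and 67.1% at 5 cytosines of an intron between 562 and 695 bp. In brain these positions averaged 84.7% and 83.5%. The start of Nanos3 in the GENCODE gene record lies 8665 bp from that in RefSeq, and its gene body averaged 2.34% in control WT F0 sperm over 48 cytosines and 3.59% in brain over 69.

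Brain levels were high at most of the germline promoters. In sons of control WT sires the 25 measured germline promoters had a median of 72.9%, and 12 of them (48%) averaged over 75%, 7 between 25% and 75%, and 6 under 25%. Nanos3, among the 12 with 94.4%, was high in control WT F0 sperm as well (84.4%). Of all 13842 promoters measured in brain, 4.52% averaged over 75%, 5.35% fell between 25% and 75%, and the median was 0.926%. Another list of 40 germline genes had 25 measured promoters, of which 6 averaged over 75% and 16 under 25%, with a median of 6.93%. Both lists were chosen with earlier results of these data known, so their contrast is a description only.

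Sperm and brain of sons of control WT sires were compared at the 13 germline promoters measured in both. A promoter was called when its adjusted p (limma, Benjamini-Hochberg over all promoters tested) was under 0.05 and its group means differed by over 5 percentage points. Of the 13 promoters, 11 were called, all higher in brain, against 1346 of all 9503 promoters (14.2%), of which 1208 were higher in brain (12.7%). A difference of over 50 points was found at 9 of the 13 and at 2.58% of all promoters. The median difference of the 13 promoters was 60.1 points, and that of all promoters 0.25 points. The libraries of both tissues did not overlap at any of the 11 promoters called, which were picked by their difference in these same libraries. How many of all promoters were without overlap was not counted. Whether a brain and a sperm library came from the same son is not given by the columns, and the tissues were compared as separate groups. Columns of F1 sperm and of brain carry different leading facility numbers, which cannot be told apart from tissue. The p-values measure only the spread between libraries, which was estimated together with the libraries of sons of smoked WT sires.

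**Figure D1:**
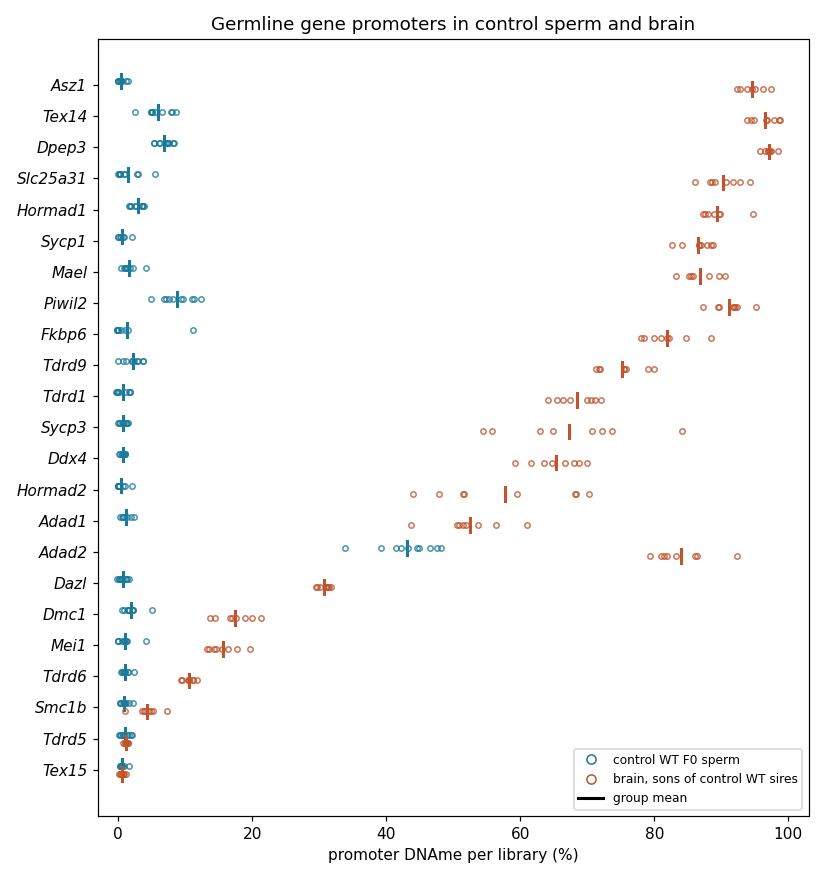
DNAme (x axis, percent) of the 23 germline promoters measured in both control WT F0 sperm (teal) and brain of sons of control WT sires (orange), 1 open circle per library, with bars for the group means. At 20 of the 23 the brain mean is higher by over 5 points, and Tex15, Tdrd5 and Smc1b lie at the bottom with both tissues near 0.

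Genes of spermatid, bridge and surface proteins included the largest differences. Dpep3, a membrane dipeptidase of the testis (chr8:105973513-105979429, minus strand), had 95.8%, 97.04% and 98.4% (lowest, median, highest of 8) in brain and 4.40%, 7.68% and 8.19% (of 6) in F1 sperm. The brain libraries were tight, far above every sperm library, and the difference was 89.9 points (SE 0.964, adjusted p = 3.97e-32). Slc25a31, the testis-specific ADP/ATP carrier (chr3:40708855-40726096, plus strand), had 86.8%, 89.2% and 92.9% in brain and -0.55%, 1.02% and 2.31% in F1 sperm. Values can fall slightly under 0 or over 100 because each library's promoter value was corrected for the cytosines it lacked. The difference at Slc25a31 was 88.8 points (SE 1.3, adjusted p = 7.22e-29). Tex14, a kinase of intercellular bridges (chr11:87405065-87555823, plus strand), was the sperm promoter with the most DNAme of the 13. Its 3 cytosines had 10.1%, 13.5%, 14.3%, 16.1% and 16.2% in the 5 F1 sperm libraries with a value and 88.8%, 97.2% and 100% in brain. They gave a difference of 82.1 points (SE 2.01, adjusted p = 3.41e-22). The start of Rad51c, which acts in homologous recombination, lies within the 1000 bp window of Tex14.

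Among genes of RNA binding and meiotic entry, Dazl, a translational regulator required for germ cell development (chr17:50279395-50293636, minus strand), had 0.00%, 0.00%, 0.142%, 0.505% and 0.855% in the 5 F1 sperm libraries and 82.3%, 86.6% and 90.2% in brain over the 9 cytosines measured in both. The difference was 86.0 points (SE 1.42, adjusted p = 3.37e-25). Adad1, an RNA-binding protein of spermatids (chr3:37063527-37121930, plus strand), had 0.480%, 0.575%, 1.18%, 1.41% and 5.43% in F1 sperm and 71.2%, 75.9% and 79.7% in brain, a difference of 73.6 points (SE 2.00, adjusted p = 8.26e-22). Ddx4, the germ cell RNA helicase also known as VASA (chr13:112598333-112652475, minus strand), was at 0.00% in 4 of 5 F1 sperm libraries and at 9.40% in column 5, against 45.7%, 62.1% and 68.7% in brain. The groups were 60.1 points apart (SE 4.42, adjusted p = 2.08e-11), with the widest brain spread but for Hormad2.

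Genes of recombination and its checkpoint were less uniform. Hormad1, a protein of the meiotic chromosome axis (chr3:95559677-95587671, plus strand), had 6.10%, 6.79%, 6.91% and 24.1% in the 4 F1 sperm libraries with a value and 83.9%, 87.7% and 91.6% (of 7) in brain. The sperm value of 24.1% is that of control WT F1 sperm column 5, whose imprinted promoters had a median of 1.43%, and the difference was 76.6 points (SE 2.65, adjusted p = 1.35e-16). Hormad2, its relative with a role in the synapsis checkpoint (chr11:4345814-4441105, minus strand), had 0.00%, 0.00%, 0.379% and 0.959% in F1 sperm and 44.7%, 51.3% and 71.7% in brain, so that the lowest and the highest brain library differed by more than at any other of the 13 promoters. The difference was 54.5 points (SE 4.83, adjusted p = 1.24e-09). Dmc1, the recombinase of meiotic strand exchange (chr15:79561497-79605109, minus strand), averaged 3.36% ± 2.04 (n = 5) in F1 sperm and 22.6% ± 4.25 (n = 8) in brain, a smaller difference of 19.22 points (SE 1.82, adjusted p = 1.05e-09). Its 5 F1 sperm libraries had 0.622%, 2.58%, 2.84%, 5.20% and 5.56%, under the lowest brain library at 17.2%.

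The piRNA and Tudor genes in the comparison ranged from a large difference to none that was detectable. Tdrd6, a Tudor protein of the chromatoid body (chr17:43615335-43630299, minus strand), had 0.00%, 0.00%, 0.364% and 3.70% in F1 sperm and 49.4%, 58.9% and 63.2% in brain at 3 cytosines, 56.5 points apart (SE 2.35, adjusted p = 4.40e-16). Piwil2 (chr14:70372477-70429383, minus strand) had 5.77%, 6.63%, 6.67% and 6.72% in F1 sperm and 40.7%, 42.3% and 43.4% in brain. Both groups of Piwil2 were tight, and the difference was 35.9 points (SE 0.601, adjusted p = 3.13e-24). Tdrd5, a Tudor protein needed for transposon silencing (chr1:156255296-156303664, minus strand), had 0.568%, 0.694%, 1.56% and 2.75% in F1 sperm and 0.00%, 2.97% and 3.68% in brain. Its groups overlapped, and the difference of 0.96 points (SE 0.795, adjusted p = 0.453) was not called. Smc1b (chr15:85064689-85131964, minus strand), the only cohesin or synaptonemal gene measured in both tissues of the sons, had 0.00%, 0.18% and 1.44% in F1 sperm and 1.15%, 5.30% and 9.09% in brain. Its difference of 4.73 points (SE 0.942, adjusted p = 0.000237) passed the test and missed the threshold of 5 points. It was over the threshold, at 5.30 points, without control WT F1 brain column 5. The start of Ribc2 lies within its window.

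At each of the 11 promoters called, the exact permutation test of brain against F1 sperm gave the smallest p that the library numbers allow (two-sided, from 0.000666 for 8 against 6 to 0.00606 for 7 against 4). Groups without overlap always give that p, so it restates the lack of overlap and is no further support. The same exact permutation test gave p = 0.00133 for Smc1b and p = 0.259 for Tdrd5. F1 sperm limited how many promoters could be compared. Without control WT F1 sperm column 1, 4 or 5, which leaves fewer than 4 sperm libraries at 5 promoters, 7 of the remaining 8 were called. Among all promoters, 797 to 1353 were called when each library was left out in turn, against 1346 with every library.

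Sons of smoked WT sires gave 12 of 13 promoters called, all higher in brain, against 1364 of 9509 among all promoters (14.3%, and 13% higher in brain). The promoter added was Smc1b, with a difference of 5.37 points (SE 0.970, adjusted p = 6.07e-05) that fell to 4.84 and 4.97 points without smoked WT F1 brain columns 1 and 2. The median difference was 65.9 points. The difference between tissues was not called as different between sons of smoked and of control sires at any of the 13 promoters (0 of 9503 among all promoters, 0.0%). At an unadjusted p under 0.05 there were 0 of 13 and 8.16% of all promoters. The largest of these differences of differences was 5.79 points at Ddx4 (SE 6.25), and Dmc1 had the smallest p, with 4.50 points (SE 2.45, adjusted p = 0.675).

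F0 sperm covered more of the genes. With control WT F0 sperm as the sperm group, 20 of 23 germline promoters were called, all higher in brain, against 2077 of 13576 among all promoters (15.3%, and 12.7% higher in brain), and 15 of the 23 differed by over 50 points against 2.77% of all. Generation, maternal strain and the leading facility number cannot be told apart from tissue in this comparison. It adds the central machinery of synapsis. Sycp1, the transverse filament of the synaptonemal complex, had 0.602% ± 0.732 (n = 7) in sperm and 86.5% ± 2.14 (n = 8) in brain, and Sycp3, a protein of its axial elements, had 0.752% ± 0.501 (n = 10) and 67.3% ± 9.91 (n = 8). Tex12, a central element protein measured in brain only, had 78.7%, 86.0% and 90.3% (lowest, median and highest of 7) there. Among piRNA genes, Asz1, a scaffold at germ cell mitochondria, had the largest difference of all at 94.1 points (SE 0.603), from 0.434% ± 0.526 (n = 9) to 94.6% ± 1.80 (n = 7). Mael, which acts in transposon silencing, differed by 85.3 points, the co-chaperone Fkbp6 by 80.5, the helicase Tdrd9 by 73.0 and the scaffold Tdrd1 by 67.7, each with an adjusted p of at most 1.61e-18. Mei1, required for the breaks that start recombination, differed by 14.6 points (0.988% ± 1.22 against 15.6% ± 2.21). Adad2 had 43.2% ± 4.29 in sperm and 84.0% ± 4.14 in brain.

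The genes not called in the F0 comparison were Smc1b at 3.34 points (SE 0.566, adjusted p = 8.20e-05), Tdrd5 at 0.19 points (SE 0.257) and Tex15, which acts in recombination and transposon silencing, at -0.05 points (SE 0.200). Tex15 had 0.614% ± 0.437 (n = 8) in sperm and 0.566% ± 0.315 (n = 8) in brain over 36 cytosines, and Tdrd5 0.967% ± 0.690 (n = 10) and 1.16% ± 0.241 (n = 8) over 43. Both tissues were close to 0 at Tex15 and Tdrd5, with overlapping libraries. Nanos3, high in both F0 sperm and brain, was not among the promoters of this comparison.

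**Figure D2:**
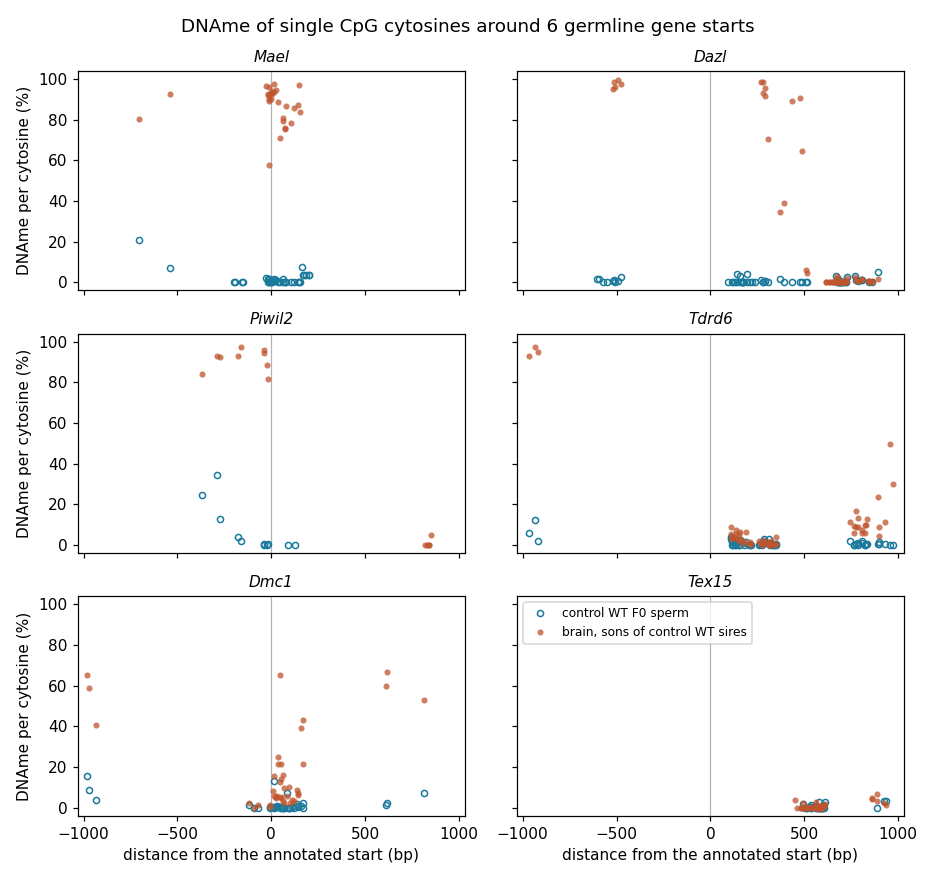
DNAme (y axis, group mean in percent) of single CpG cytosines by distance from the annotated start (x axis, bp) at 6 germline genes, in control WT F0 sperm (open teal) and brain of sons of control WT sires (filled orange). Brain DNAme at Dazl falls from 81.5% on average between 433 and 488 bp to 5.34% at 507 to 517 bp, and at Tdrd6 it is 95.1% at 3 cytosines far upstream and 2.49% at 38 cytosines after the start.

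Brain DNAme varied with position within the promoter window at several genes, whose promoter averages mix methylated and unmethylated stretches. Over all germline genes measured, the median cytosine in brain had 90.8% in the 250 bases before the start (96 cytosines of 11 genes), 63.3% in the first 250 after it (242 of 17 genes), 37.8% from 251 to 500 bp (111 of 15 genes) and 0.847% from 501 to 1000 bp (129 of 11 genes). Which genes are measured differs between these classes, and cytosines of a gene are not independent. Of the 129 cytosines in the last class, 41 were of Dazl, and others were of Tex15, which was at most 6.53% throughout its window. In the same class 5 cytosines of Adad2 averaged 83.5% and 3 of Dmc1 averaged 59.8%. Sperm medians stayed between 0.00% and 3.99% in every class.

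Dazl held both states within a single gene. Its 5 cytosines between -519 and -476 averaged 97.3% in brain, and 6 between 272 and 308 bp averaged 91.3%. In the intron, 2 cytosines at 373 and 394 bp averaged 36.8%. The average was 81.5% at 3 cytosines from 433 to 488 bp, 5.34% at 2 from 507 to 517 bp, and 0.54% over 39 from 614 to 894 bp. The last drop falls between the CpGs at 488 and 507 bp, in the intron stretch printed above, after a lower pair within the methylated part. Per library of sons of control WT sires, the 16 cytosines up to 488 bp gave 84.5% ± 2.27 (n = 8, 80.3% to 86.6%) and the 41 cytosines from 507 bp gave 0.79% ± 0.506 (0.369% to 1.86%). In sons of smoked WT sires the first stretch ran from 42.9% to 91.2% (SD 16.05, n = 8). These library values are plain means over the cytosines with a value, not corrected for those a library lacked. Whether lacking cytosines account for part of this spread was not tested. F0 sperm averaged at most 0.901% in each of these stretches.

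Piwil2 also held both states, with 91.1% at 9 cytosines between -367 and -17 and 1.00% at 5 between 817 and 848 bp. The Piwil2 value thus depended on which cytosines entered, being 59% over 14 cytosines of the brain fit, 42.3% over the 9 shared with F1 sperm and 91.2% over the 9 shared with F0 sperm. Tdrd6 had 95.1% at 3 cytosines between -968 and -920, 2.49% at 38 cytosines from 109 to 350 bp, 10.2% at 17 from 745 to 930 bp and 39.7% at 2 from 959 to 973 bp. Its difference of 56.5 points from F1 sperm rests on the 3 cytosines shared with F1 sperm, a different set from the 3 upstream. Over 60 cytosines the difference from F0 sperm was 9.48 points (SE 0.323). Dmc1 had 55.1% at 3 cytosines about 1 kb upstream, 9.71% over 31 cytosines around the start and 59.8% at 3 cytosines of an intron from 611 to 812 bp. Adad1 fell from 95.6% before its start to 67.3% between 115 and 178 bp and 40.3% between 272 and 325 bp.

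Even Smc1b, low on average, had 20.4% at 3 cytosines between -393 and -358 in brain against 1.01% at 15 between -268 and -53. Mael stayed high throughout, with 86.9% over 26 cytosines between -27 and 151 bp. Both strands of a CpG could be compared at 138 CpGs of 20 genes, where brain values of the paired cytosines differed by a median of 2.60 points. They differed by over 25 points at 7 CpGs, among them a CpG of Sycp1 with 7.25% at -96 and 94.3% on the other strand at -97. Whether CAST/EiJ sequence variants lie at these CpGs was not tested.

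The CpG content of the methylated germline promoters was set beside that of other promoters, as a description. The observed over expected CpG ratio within 500 bp of the start had a median of 0.674 at the 12 germline promoters over 75% in brain. It was 0.294 at all 626 promoters over 75% and 0.738 at the 12476 promoters under 25%. The 12 ran from 0.167 (Nanos3) to 0.765 (Fkbp6). The germline promoters under 25% in brain had a median of 0.672, close to that of the 12 over 75%.

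**Figure D3:**
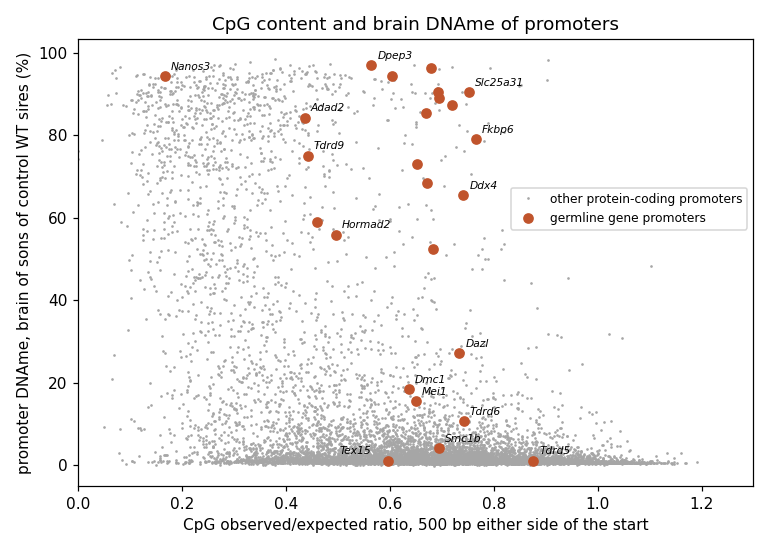
DNAme in brain of sons of control WT sires (y axis, percent) against the observed over expected CpG ratio within 500 bp of the start (x axis) for 13842 promoters (grey points), with the 25 germline promoters as orange points. Germline promoters over 75% lie mostly at ratios above 0.5, where most other promoters have values near 0.

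Among the motifs searched in the 250 bases before the start, on both strands, the E-box CACGTG was present at 16 of the 40 germline genes (40%) and at 6.52% of all 21911 promoters of that length. It was present at 10% of the other germline list and at 8.32% of all promoters with a brain value. Over 75% in brain, it was present at 8 of the 12 germline promoters (66.7%) and at 5.59% of all promoters. Under 25%, it was present at 2 of the 6, which were Mei1 and Tex15, and at 8.75% of all promoters. The Hormad1 stretch holds it at -57 to -52 and at -20 to -15. The E2F-like GCGGGAA was present at 5 of the 40 (12.5%, Sycp3, Tex12, Smc1b, Hormad1 and Tex14). Its share was 4.70% of all promoters and 15% of the other germline list, above that of the 40. It lies at -95 to -89 in Hormad1 and at -41 to -35 on the other strand in Smc1b. The CRE-like TGACGT was found at Dazl alone (2.5% against 7.17% of all promoters and 5% of the other germline list). The motifs can share bases at their ends, and Dazl held only TGACGT. A match is a description of these letters only, and both gene lists were chosen with earlier results of these data known.

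The next comparisons asked whether CS exposure or loss of Nrf2 changed these promoters. By limma, 0 germline promoters were called in the 12 exposure and genotype comparisons, and 0 in the 376 refits of them under other settings, array weights and an arcsine scale included. For each of them the plot of differences shows every promoter with the range of all promoters.

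**Figure D4:**
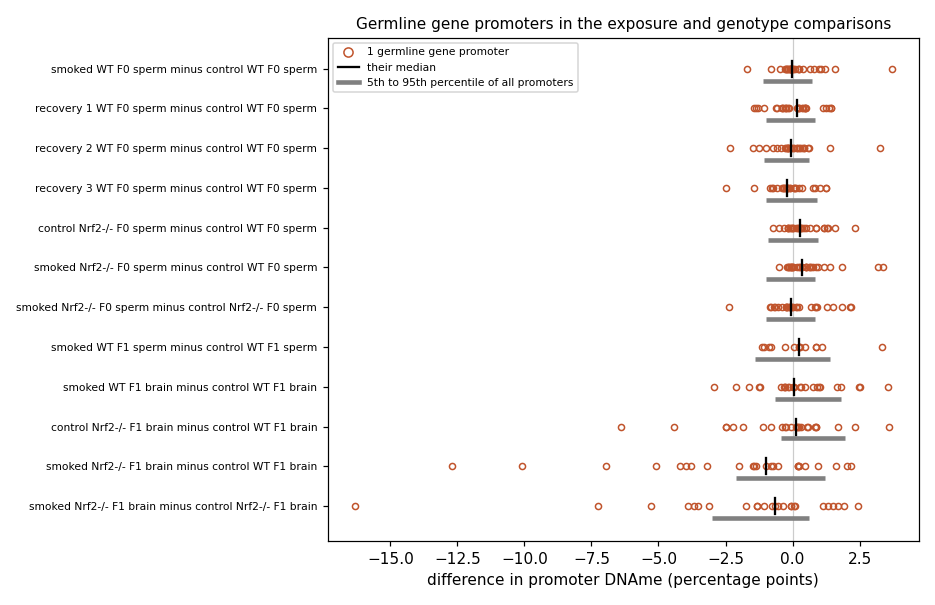
Difference in promoter DNAme (x axis, percentage points) of each germline promoter (open circle) in the 12 exposure and genotype comparisons (rows), with their median (black tick) and the 5th to 95th percentile of all promoters (grey bar). In F0 and F1 sperm the circles lie between -2.49 and 3.69 points, and in brain of sons of smoked Nrf2-/- sires they reach -16.3 points at Hormad2.

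In F0 sperm of smoked WT males, 0 of 29 germline promoters and 0 of 13249 promoters (0.0%) were called against control WT. At an unadjusted p under 0.05 there were 2 of 29, Mael and Hormad1, both higher, and 4.36% of all promoters. Mael had 1.59%, 2.09% and 8.47% (lowest, median, highest of 9) in smoked WT and 0.902%, 1.74% and 4.86% (of 9) in control WT. The groups overlapped, with a difference of 1.58 points (SE 0.729, unadjusted limma p = 0.0338, adjusted p = 0.995). Nanos3 had the largest difference, 3.69 points (SE 2.94), from 68.4%, 86.1% and 92.9% in control WT to 72.7%, 89.0% and 96.8% in smoked WT. The median difference of the 29 promoters was -0.04 points, and their standard errors ran from 0.219 to 2.96 points. At 27 of the 29 the difference with 2 standard errors either way stayed within 5 points.

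The recovery groups, set against the same control WT libraries, gave the same count of 0 of 29 called and 0.0% of all promoters at each time. In recovery 1, Asz1 had 0.00%, 1.06% and 6.95% against 0.00%, 0.203% and 1.43% in control WT, a difference of 1.44 points (SE 0.545, adjusted p = 0.960), and 3 of 29 promoters (Asz1, Hormad1 and Tdrd6) against 5.00% of all had an unadjusted p under 0.05. In recovery 2 there were 0 of 29 against 4.48%, and Adad2 differed most, by 3.26 points (SE 2.00, 45.9%, 51.1% and 59.2% against 38.5%, 49.7% and 52.8%), and the direction at Adad2 reversed, to -2.52 points, with the plain mean of the cytosines. The smallest p of that comparison was for Dpep3, with -1.48 points (SE 0.768, adjusted p = 0.971), from 4.27%, 6.44% and 9.63% in control WT to 2.81%, 4.80% and 7.24%. Recovery 3 had 1 of 29, Sycp3, against 5.19%, with 0.576%, 1.01% and 5.57% against 0.00%, 0.795% and 1.5% and a difference of 1.24 points (SE 0.598, adjusted p = 0.904). Nanos3 moved most in recovery 3, by -2.49 points (SE 2.94, 71.7%, 82.9% and 92.1%). Libraries of the groups overlapped at each promoter named here. Over libraries, the exact permutation test gave an unadjusted p of 0.101 for Mael in smoked WT, 0.0926 for Asz1 in recovery 1 and 0.0408 for Sycp3 in recovery 3.

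Loss of Nrf2 gave 0 of 29 germline promoters called in unexposed males, against 2 of 13248 among all promoters (0.0151%), and 0 of 29 in CS-exposed Nrf2-/- males against control WT, with 2 of 13249 among all promoters (0.0151%). Both comparisons share the control WT libraries, and genotype cannot be told apart from the facility's numbering run in F0 sperm. At an unadjusted p under 0.05 there were 1 of 29 (Msh4) against 5.31% of all promoters, and 2 of 29 (Hormad2 and Tdrd1) against 5.56%. Msh4 had 0.00%, 1.85% and 2.60% (of 8) in control Nrf2-/- and -0.17%, 0.00% and 1.5% (of 9) in control WT, a difference of 1.16 points (SE 0.569, adjusted p = 0.874). Mov10l1, an RNA helicase that acts with PIWI proteins, had the largest difference, 2.32 points (SE 2.65), and a wide range in both groups (-2.61% to 23.3% and -2.61% to 10.4%). In smoked Nrf2-/- males Hormad2 had -0.08%, 0.702% and 9.51% against -0.08%, 0.0411% and 2.11%, a difference of 1.19 points (SE 0.532, adjusted p = 0.874). The highest value was that of smoked Nrf2-/- F0 sperm column 4, and the groups otherwise overlapped. The unadjusted exact permutation p was 0.0106 for Msh4 and 0.252 for Hormad2. Adad2 differed by 3.37 points (SE 2.06).

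Within Nrf2-/- males, CS exposure gave 0 of 29 called and 0.0% of 13248 promoters. Tdrd9 alone had an unadjusted p under 0.05, against 4.30% of all promoters, with 0.00%, 0.878% and 14.8% in smoked and 0.00%, 1.04% and 3.91% in control Nrf2-/- (2.15 points, SE 1.03, adjusted p = 1.00, unadjusted exact permutation p = 0.274). Mov10l1 again had the largest difference, -2.38 points (SE 2.96). The effect of CS exposure was not called as different between Nrf2-/- and WT males at any of the 29 promoters (0.0% of 13248), with 3 of 29 (Hormad1, Msh4 and Tdrd9) against 3.64% of all at an unadjusted p under 0.05. Hormad1 had the smallest p, with -1.92 points (SE 0.880, adjusted p = 0.999), and Mov10l1 the largest difference of effects, -3.19 points (SE 4.19).

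Sperm of the sons was measured at 14 germline promoters. Between sons of smoked and of control WT sires 0 of 14 were called (0.0% of 9951), and 0 of 14 had an unadjusted p under 0.05 against 5.43% of all promoters. Tex14 had both the largest difference and the smallest p, with 11.4%, 13.4% and 22.3% (of 6) in sons of smoked and 3.41%, 13.5% and 15.2% (of 6) in sons of control sires. The groups overlapped, and the difference was 3.33 points (SE 2.36, adjusted p = 0.882, unadjusted exact permutation p = 0.247). At 11 of the 14 the difference with 2 standard errors either way stayed within 5 points. Which sons shared a sire or litter is not given by the columns. Each son was treated as independent, so standard errors between sire groups may be too small.

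Brain of sons gave 0 of 25 germline promoters called for smoked against control WT sires (0.0% of 13842) and 0 of 25 for control Nrf2-/- against control WT sires (0.0% of 13842), 2 comparisons that share the control libraries. At an unadjusted p under 0.05 there were 0 of 25 in each, against 2.38% and 22.1% of all promoters. In the second, 21.9% of all promoters were higher at that p, with a median of 0.42 points over all promoters and 0.13 over the 25. Of the 25, 19 average over 25% in brain, and among the 1372 promoters of that level 4.37% were higher and 1.46% lower at that p. Brain columns of sons of Nrf2-/- and of WT sires carry separate stretches of the facility's numbers, so that sire genotype and numbering run cannot be told apart. Dazl had the smallest p in both. It had 25.9%, 27.1% and 28.0% in sons of control WT, 26.1%, 27.9% and 29.3% in sons of smoked WT and 27%, 28.1% and 29.3% in sons of control Nrf2-/- sires, with differences of 0.76 (SE 0.439, adjusted p = 1.00) and 0.88 points (SE 0.439, adjusted p = 0.228). The direction at Dazl for smoked WT sires reversed, to -1.78 points, when the plain mean of the cytosines was taken.

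Adad1 differed most for smoked WT sires, by 3.58 points (SE 2.21), with 48.2%, 56.8% and 58.9% (of 7) against 43.7%, 51.6% and 61% (of 8), and it fell to -0.54 points when a value in every library was asked of each cytosine. Sycp3 differed most for control Nrf2-/- sires, by -6.39 points (SE 3.36, adjusted p = 0.240), from 57.5%, 73.7% and 88.0% in sons of control WT to 61.4%, 63.7% and 74.5%. The libraries of both groups overlapped at each of these genes. The largest standard error among the 25 promoters was 7.39 points for smoked WT sires, and at 15 of the 25 the difference with 2 standard errors either way stayed within 5 points. Sons were again treated as independent, with sire and litter unknown.

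Brain of sons of smoked Nrf2-/- sires had a median of 63.3% over the 25 promoters, the lowest of the 4 groups. Against sons of control WT sires 0 of 25 germline promoters were called, and 1 of 13842 among all promoters (0.00722%). At an unadjusted p under 0.05, 5 of 25 were lower (Dpep3, Piwil2, Slc25a31, Sycp3 and Tex14) and 0 higher, against 19.8% of all promoters, 1.18% lower and 18.6% higher. Among the 1372 promoters that average over 25% in brain, a background chosen after the data were seen, 7.51% were lower at that p, and 5 of the 19 germline promoters among them. Piwil2 had 46.7%, 55.1% and 60% in sons of smoked Nrf2-/- and 56.3%, 59.3% and 62.5% in sons of control WT sires, a difference of -3.80 points (SE 1.29, adjusted p = 0.220, unadjusted exact permutation p = 0.0152). The groups overlapped, and the difference at Piwil2 turned to 0.06 points with a value in every library asked of each cytosine. Hormad2 had the largest difference, -12.7 points (SE 7.72, adjusted p = 0.307), with 31.4%, 44.1% and 57.7% (of 6) against 32.9%, 58.3% and 84.0% (of 8). Sycp3 differed by -10.1 points (SE 3.48, adjusted p = 0.220).

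Against sons of control Nrf2-/- sires, 0 of 25 were called (0.0% of 13842). At an unadjusted p under 0.05, 3 were lower (Hormad2, Piwil2 and Tdrd1) and 1 higher (Sycp1), against 4.74% of all promoters, 3.91% lower and 0.831% higher, and 13.3% lower among those averaging over 25%. Piwil2 differed by -3.54 points (SE 1.29, adjusted p = 0.827, unadjusted exact permutation p = 0.0292) from 54.6%, 59.1% and 61.3% in sons of control Nrf2-/- sires. Hormad2 differed by -16.3 points (SE 7.72, adjusted p = 1.00, unadjusted exact permutation p = 0.0147) from 44.3%, 58.5% and 78.0%. Both comparisons share the smoked Nrf2-/- libraries. In these, columns 2, 4 and 5 had the lowest median over the germline promoters, 51.2%, 54.3% and 56.6%, where the other columns had 61.3% to 73.0%. Over all promoters their means were 8.41%, 7.36% and 7.43% against 7.89% to 9.56% in the other columns. Their imprinted promoters had medians of 7.18%, 11.8% and 14.3%, and column 6 had 16.9%, where the remaining columns had 21.6% to 34.3%. In a refit without columns 2, 4 and 5, left out after the data were seen, 0 of 25 were called in either comparison. Low libraries were left out of the smoked Nrf2-/- group only. Smoked WT F1 brain column 8 was kept, although it was lower than columns 2, 4 and 5 on each of these measures. Its median was 32.98% over the 15 germline promoters with a value. Its mean over all promoters was 6.61%, and its imprinted promoters had a median of 4.76%. Against sons of control WT sires, 3 of the 5 lower promoters kept an unadjusted p under 0.05, with 0.454% of all promoters lower and 2.89% lower among those averaging over 25%. These were Sycp3 (-9.21 points), Slc25a31 (-4.88) and Tex14 (-4.04), while Piwil2 (-1.84) and Dpep3 (-0.94) did not. Against sons of control Nrf2-/- sires 0 of 25 had such a p, with 3.56% of all promoters, and 4.57% lower among those averaging over 25%. The differences there were -14.2 points at Hormad2, -1.59 at Piwil2, -0.75 at Tdrd1 and 2.10 at Sycp1. CS exposure was not called as having a different effect between the sire genotypes at any of the 25 promoters (0.0% of 13842), with 2 of 25 (Adad1 and Dazl) against 4.76% at an unadjusted p under 0.05. Adad1 had the smallest p, with -7.49 points (SE 3.08, adjusted p = 0.921), and Hormad2 the largest difference of effects, -14.7 points (SE 10.7). Without columns 2, 4 and 5, and with smoked WT F1 brain column 8 kept, 1 of 25 (Adad1) had an unadjusted limma p under 0.05. That stood against 3.87% of all promoters, and 7.92% lower among those averaging over 25%.

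**Figure D5:**
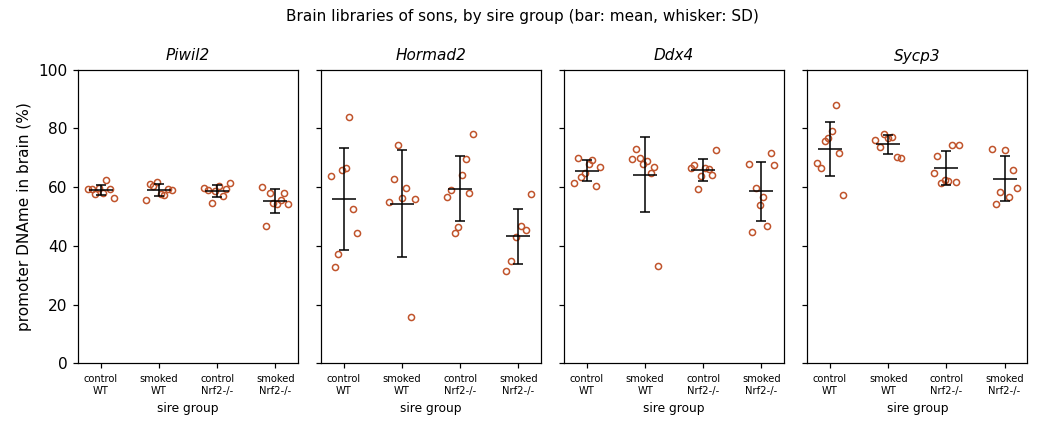
DNAme (y axis, percent) of Piwil2, Hormad2, Ddx4 and Sycp3 in each brain library (open circles) by sire group (x axis), with the mean (bar) and SD (whiskers). Groups overlap at all 4 genes, Hormad2 spans 32.9% to 84.0% in sons of control WT sires alone, and the lowest Ddx4 value, 33%, is smoked WT F1 brain column 8. Values are over the cytosines of the brain fit.

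Spread between brain libraries differed among the genes. The residual standard deviation within groups was 0.892 points at Dazl, lower than at any of the 203 promoters with a brain level within 5 points of it, whose median was 4.40. It was 2.64 points at Piwil2 against a median of 7.44 over 138 promoters of like level, and 1.05 at Dpep3 against 2.78 over 159. Dazl and Piwil2 average over highly and barely methylated stretches, as given above. At Dazl, within groups, plain library means up to 488 bp, not corrected for lacking cytosines, had an SD of 2.27 to 16.05 points. Those from 507 bp had an SD of 0.506 to 0.971. Hormad2, measured at 7 cytosines, had the widest spread, 14.7 points against 7.70 over 144 promoters of like level.

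Of the genes without a promoter value, Sycp2, Syce1, Rec8, Spo11, Piwil1, Piwil4, Pld6, Stra8 and Tex101 had 0 cytosines that could be used in any tissue, and Meioc had 2 in F0 sperm. Msh4, Tdrkh, Mov10l1, Stk31 and Brdt had promoter values in F0 sperm only, of 0.311%, 1.3%, 5.15%, 1.23% and 2.42% in control WT. Gene bodies were measured for some of them and are no substitute for a promoter. The gene body of Spo11, the enzyme that makes meiotic breaks, had 42.2% ± 1.31 (n = 10) in control WT F0 sperm and 87.0% ± 1.13 (n = 8) in brain of sons of control WT sires. Piwil1 had 77.4% and 71.1%, and Piwil4 93.6% and 64.7%. Stra8, which initiates meiosis, had 54.2% and 86.1%. Meioc, which sustains meiotic prophase, had 1.08% ± 0.904 and 51.3% ± 2.46. In Tex101, a surface protein of germ cells, the values were 1.86% ± 1.10 and 92.8% ± 1.23. In sperm of the sons, which share the maternal strain with the brain libraries, the gene bodies had 57.2% at Spo11, 67.4% at Piwil1, 69.1% at Piwil4, 73.0% at Stra8, 0.802% at Meioc and 2.32% at Tex101. The cytosines measured differ between the 3 sets, Stra8 having 12 in F0 sperm, 8 in brain and 5 in sperm of sons. The gene bodies of Syce1, Msh4, Tdrkh, Mov10l1, Stk31 and Brdt, measured in brain, had 77.6%, 85.5%, 79.2%, 88.0%, 86.8% and 54%.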

How the data were processed

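Sperm and brain DNA had been digested with MspI and TaqαI, bisulfite converted and sequenced (RRBS). Per the labels, the authors aligned reads with Bismark (version not given in the sources used here) to mm10, and deposited 1 table per group with the methylation percent of each cytosine in each library. No read counts come with the percent values, so depth, intervals and detection limits are unknown, and the number of libraries sets the precision.

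Cytosines within 1000 bp of the 5′ end of each GENCODE vM21 gene record were collected. A cytosine was used with a value in at least 4 libraries of every group of a fit, and a promoter with at least 3 such cytosines. A library's promoter value was the mean over its cytosines, each centred on its mean over the groups, and needed 50% of the cytosines. Groups were compared with limma 3.58.1 (R 4.3.3) on the percent scale over all promoters, with 1 fit for F0 sperm, 1 for F1 sperm and 1 for F1 brain. Both tissue comparisons of sons of WT sires shared 1 fit of their 4 groups, and brain against F0 sperm had its own. A call needed a Benjamini-Hochberg adjusted p under 0.05 and a difference over 5 points. Exact permutation tests over libraries (two-sided, scipy 1.17.1) were added for single promoters, with 100000 resamples where both groups had 10 libraries. Tables and figures used Python 3.11.15, numpy 2.4.6, pandas 2.3.3, pysam 0.24.0 and matplotlib 3.10.9.

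Tested on simulated data with shifts of 5.5, 10 and 20 points in 200 promoters, the fit called 91%, 98.5% and 100% of them for smoked against control WT F0 sperm, 82.1%, 95.5% and 98.5% for the F1 brain comparison, and 82.1%, 91% and 98.5% for F1 sperm. It made at most 1 false call. The shifted promoters were drawn from all promoters, of which 85.7% averaged under 10% in brain of sons of control WT sires. These shares therefore do not apply to germline promoters of wide spread, such as Hormad2 in brain with a residual SD of 14.7 points.

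The members and lists were chosen with earlier results of these data known. Every measured gene of the list was named in the tissue comparison. In each other comparison the gene with the smallest p and that with the largest difference were named, and others by name only where counts of 5 or fewer were broken down after their values were seen. Sequence was printed by rule for the 3 largest and the smallest tissue difference with at least 3 cytosines in the 250 bases before the start. Alternatives covered the window, the start, the filters on cytosines, the plain mean, an arcsine scale, array weights, the threshold, the groups fitted and leaving out each library. The RefSeq start, the background of promoters over 25% in brain, the Dazl stretch, the refit without 3 brain columns and sets of facility numbers as a block were added after the data were seen.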

Additional observations from a re-analysis of the deposited data

Results flagged for a closer look

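In 19 of 90 gene and group combinations with 4 to 10 libraries (21.1%), the highest or lowest library lay far from the rest by Dixon's criterion. Chance meets it in about 1 of 20 groups only where values are normally distributed. Several of the flagged sperm groups have most values at or near the floor of the percent scale. Genes outside the tissue comparison were picked by their p or difference. The 21.1% can therefore not be set against that rate. No explanation was weighed.

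Control WT F1 sperm column 5 stood out as the highest at 3 promoters, with 24.1% at Hormad1, where the next library had 6.91%, with 9.40% at Ddx4, where the other libraries had 0.00%, and with 5.43% at Adad1, where the next had 1.41%. In the same group, column 4 was highest at Tdrd6 (3.70%), column 3 lowest at Dpep3 (4.40%) and column 1 lowest at Piwil2 (5.77%). Among sperm of sons of smoked WT sires, Dazl had 6.53% in column 4, Ddx4 3.57% in column 5 and Tdrd6 4.76% in column 2, each the highest, and Dpep3 1.43% in column 6, the lowest.

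In brain of sons of smoked WT sires, column 1 was the highest at Dmc1 (34.9%) and Tdrd5 (7.57%), and column 8 was the lowest at Ddx4 (40.2%). In brain of sons of control WT sires, Ddx4 was lowest in column 6 (45.7%) and Piwil2 in column 8 (40.7%). These values are over the cytosines shared with F1 sperm. Over the cytosines of the brain fit, Adad1 was lowest in smoked WT column 1 (48.2%). In that fit Piwil2 was lowest in smoked Nrf2-/- column 2 (46.7%), where the next library had 54.4%. The lowest Piwil2 value of that fit in sons of control WT sires was 56.3%.

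In F0 sperm, Hormad2 was highest in smoked Nrf2-/- column 4 (9.51%, the next library 1.46%) and in control WT column 5 (2.11%, the next 1.05%).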

How the results depend on the processing

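In the 12 exposure and genotype comparisons the count of germline promoters called was 0 in each of 376 refits, from 0 to 0 when each library was left out. The count of 11 of 13 for brain against sperm in sons of control WT sires became 4 of 4 with a value in every library, 4 of 5 with at least 6 libraries, 4 of 5 with at least 10 cytosines and 20 of 23 with F0 sperm. It ran from 7 to 12 when libraries were left out, being 7 of 8 without sperm column 1, 4 or 5, since fewer promoters then passed the filter. Calls among all promoters ran from 797 to 1353 in these refits. For sons of smoked WT sires the 12 of 13 became 4 of 4, 4 of 5 and 5 of 5 under the same 3 filters. That count ran from 11 to 12 when libraries were left out, with 1280 to 1370 called among all promoters. Smc1b was over 5 points, at 5.30, without control WT F1 brain column 5. In sons of smoked sires it fell to 1.39 points with at least 6 libraries, and to 4.84 and 4.97 without brain columns 1 and 2. Directions reversed at Adad2 in recovery 2 (-2.52 points) and Dazl for smoked WT sires in brain (-1.78) with the plain mean, and at Adad1 for smoked WT sires (-0.54) and Piwil2 for smoked Nrf2-/- against control WT sires (0.0556) with a value in every library. The cause was not tested, and none of these was called under either setting. The other 441 counts and 1146 single values kept their direction and side of the threshold. Over all promoters the calls ranged from 275 to 2845 for sons of control and from 279 to 3681 for sons of smoked sires.

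No paired analysis was possible because the columns carry no replicate numbers. Facility numbers interleave the groups, in 10 sets of at most 5 in WT F0 sperm and in 4 sets of 4 in brain of each sire genotype. Deviations of library pairs of a set had a median r across promoters of 0.00867 (-0.196 to 0.424), 0.0674 (WT sires, -0.065 to 0.479) and 0.0952 (Nrf2-/- sires, -0.0836 to 0.284). Between sets the medians were -0.00102, -0.012 and -0.0185. No range was computed between sets, so the ranges within sets have nothing to be set against. With these sets as a block, chosen after the data were seen, the 4 comparisons of WT F0 sperm and the 2 of smoked with control sires in brain again gave 0 called. At an unadjusted limma p under 0.05 the genes changed. Smoked WT F0 sperm had Msh4, and not Mael or Hormad1, against 3.70% of all promoters. Recovery 1 had Asz1 alone (5.09%), recovery 2 had 0 of 29 (4.18%) and recovery 3 had Tdrd9, lower, with Sycp3 (5.24%). In brain, smoked against control Nrf2-/- sires kept Hormad2 and Piwil2 (7.16%), and WT sires again had 0 of 25 (6.23%). Without read counts, thinly covered cytosines weigh as much as others. F1 sperm, with as few as 510221 positions in a library, limits the genes compared between tissues. All sons are hybrids, and allele-specific DNAme was not analysed here.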

Other observations

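Some genes without a usable window at the GENCODE start had one at the RefSeq start, a choice made after the data were seen. Tex101, whose RefSeq start lies 4625 bp away, had 1.86% ± 1.10 (n = 10) in control WT F0 sperm and 92.8% ± 1.23 (n = 8) in brain of sons of control WT sires there. These are the same cytosines as those of its gene body. Meioc, 1869 bp away, had 1.27% ± 0.795 and 51.3% ± 2.46, and its brain cytosines are likewise those of the gene body. Stra8, 785 bp away, had 0.446% ± 1.18 (n = 7, 4 cytosines) in control WT F0 sperm there, where its gene body had 54.2%, and no usable window in brain. Mei1 had 82.3% ± 2.22 in sperm and 79.0% ± 4.11 in brain at its RefSeq start, 12480 bp away, against 0.997% and 15.6% at the GENCODE start.

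Gene bodies of 24 germline genes were set side by side in control WT F0 and F1 sperm, with no test. In F1 sperm 18 were lower and 6 higher, with a median difference of -9.71 points, and 8 were lower by over 20 points. The share over the bodies of all genes was not computed, so whether this is particular to germline genes is unknown. The largest was at Fkbp6, with 94.1% and 23.3% over 4 and 5 cytosines. Ddx4 had 92.9% ± 5.62 (n = 10) in control WT F0 sperm and 47.2% ± 4.23 (n = 6) in F1 sperm, and Msh4 had 96.7% ± 1.26 and 64.6% ± 4.03. Sycp1 had 94.6% and 49.7%. Among the 6 that were higher in F1 sperm, Nanos3 had 2.34% over 48 cytosines and 22.4% over 11. Spo11 had 42.2% and 57.2%, and Stra8 had 54.2% and 73.0%. The cytosines measured differ between these sets, and neither maternal strain nor the leading facility number can be told apart from generation.

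Among 17 other germline genes measured in both tissues of sons of control WT sires, 8 were called, all higher in brain, with a median difference of 2.01 points. Sohlh2 and Gtsf1 differed most, by 96.0 and 94.7 points, and Hspa2 least, by 0.02 points.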
